A study of Sus scrofa with 4 samples.

Results

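Across RNA sequencing libraries of heart, liver, lung and kidney from pigs (Sus scrofa) of the Tibetan breed, 224 of 18367 gene models had reads in 1 tissue and none in the other 3. The members were chosen by their read counts: a model belonged to the set if it was listed in exactly 1 of the 4 deposited tables with 10 reads or more. Models of 10000 bases or more, of 250 bases or less, or on scaffold46278, scaffold8242 or scaffold31207 were left out. The set held 65 heart-only models, 20 liver-only models, 108 lung-only models and 31 kidney-only models. Beside all models with 10 reads or more in the library that passed the same limits on length and scaffold, these were 0.511% of 12729 models in heart, 0.197% of 10146 in liver, 0.800% of 13499 in lung and 0.252% of 12301 in kidney. These percentages follow from the rule and from the depth of the absent libraries, so the members' counts and levels are a description and carry no test.

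Each tissue was represented by 1 library of total RNA, and the labels place the animals' origin in Ganzi, Sichuan, without age, sex or number of animals. The heart library was the deepest, with 14062622 reads assigned to models, followed by lung with 8853076, kidney with 5486480 and liver with 4090775. There was no replicate of any tissue, so no value below has a replicate check. The identifiers are not paired with gene names in the files, and 0 of 18367 matched the pig reference tables, so markers could not be read to check the tissue labels and no gene functions are given. For the same reason at most 2 models are named per tissue, those of highest RPKM (reads per kilobase of model length relative to the total reads of the library).

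Genes whose RNA is found in a single organ usually serve that organ's specialised work. Heart muscle makes contractile and electrical proteins, and liver cells make plasma proteins and enzymes of metabolism. Lung holds surfactant-producing, ciliated and immune cells, and kidney tubules carry transporters of salts, sugars and water. Bulk RNA from an organ is a mixture of cell types, so fewer cells of a type and less RNA per cell cannot be told apart in it, and a gene of a rare cell type can fall below the depth of a library.

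Most models listed in a single table rested on very few reads. Of 1605 such models, 774 had exactly 1 read and 594 had 2 to 9 reads, which left 237 at 10 reads or more. The limits on length and scaffold then removed 13, of which 11 were 250 bases or less, 1 was 10000 bases or more and 1 lay on a named scaffold. By tissue, 8 models were removed from the heart list, 2 from the liver list, 3 from the kidney list and 0 from the lung list.

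Members held a small part of each library. They took 0.431% of all heart reads (95% exact binomial interval 0.428 to 0.435), 0.0899% of liver reads (0.0871 to 0.0929), 0.118% of lung reads (0.116 to 0.121) and 0.0821% of kidney reads (0.0797 to 0.0845). Such intervals cover counting error only, since each tissue had 1 library. The labels name no molecular identifiers, so copies of 1 molecule may be counted more than once, which the intervals leave out.

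Heart-only models fell into a large group of few reads and a smaller group of very many. Of the 65 members, 25 had 10 to 19 reads, 11 had 20 to 49, 4 had 50 to 99, 12 had 100 to 999 and 13 had 1000 or more. Their median was 37 reads or 3.31 RPKM, with quartiles of 1.36 and 62.5 RPKM and a range of 0.199 to 648 RPKM. The other models of 10 heart reads or more had a median of 11.5 RPKM. At 100 RPKM or more there were 11 heart-only models, against 2 in liver, 2 in lung and 3 in kidney. These were 11 of 65, 2 of 20, 2 of 108 and 3 of 31 members, while the heart-only median was the lowest of the 4 sets. Among the other models of 10 reads or more, 100 RPKM was reached by 984 of 12664 in heart and 862 of 10126 in liver. In lung it was reached by 1073 of 13391 and in kidney by 1383 of 12270.

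The heart-only model of highest RPKM was evm.model.scaffold20282.5, a model of 261 bases and so just above the length limit. It had 2379 reads in heart and 0 in liver, lung and kidney. Its heart level was 648 RPKM (95% exact Poisson interval 622 to 675), rank 182 among all models of that library. For 0 reads the limit was set at 3 reads per library, which for this length is 2.81 RPKM in liver, 1.30 in lung and 2.10 in kidney. Heart was therefore at least 231-fold above liver, 499-fold above lung and 309-fold above kidney. These bounds, here and below, use the counted level and not the lower end of its interval. They follow the depth of each library and do not rank the 3 tissues.

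The second was evm.model.scaffold25393.14, of 459 bases, with 2751 reads in heart and 0 in the other 3 libraries. It stood at 426 RPKM in heart (410 to 442), at least 267-fold above liver, 577-fold above lung and 358-fold above kidney. Median-ratio scaling, which divides a library by its median ratio to the geometric mean of the 4, lowered the bounds over liver to 153-fold for the first model and 177-fold for the second. By reads the first place went to a longer model of 4689 bases, with 19347 heart reads or 293 RPKM. That model alone held 31.9% of the reads of all heart-only members, and at the same RPKM it would have given 5628 liver reads, 12180 lung reads and 7548 kidney reads. The 5 members of most reads held 62.0% of the 60660 reads of the heart-only set.

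Liver-only models were few and, by their median, of higher level than those of the other tissues. The 20 members ranged from 1.80 to 252 RPKM in liver with a median of 24.1, against a median of 11.2 RPKM for the other models of 10 liver reads or more. All 20 stood at 1 RPKM or more, and 15 at 10 RPKM or more. Of the 10126 other models of 10 liver reads or more, 9974 stood at 1 RPKM or more and 5429 at 10 RPKM or more. The minimum of 10 reads, at the median length of each tissue's members, equals 2.12 RPKM in liver and 2.22 in kidney, but 0.847 in heart and 0.935 in lung, so models of lower level could enter the heart-only and lung-only sets.

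The highest liver-only model was evm.model.scaffold29874.32, of 675 bases, with 697 reads in liver and 0 in heart, lung and kidney. Its liver level was 252 RPKM (234 to 272), at least 799-fold above heart, 503-fold above lung and 312-fold above kidney. The second, evm.model.scaffold14490.1, of 1952 bases, had 812 reads in liver, the most of any liver-only model, and 0 in the other 3 libraries. It stood at 102 RPKM in liver (94.8 to 109), at least 930-fold above heart, 586-fold above lung and 363-fold above kidney. Under median-ratio scaling the bounds of the first were 1206-fold over heart, 1132-fold over lung and 643-fold over kidney, and those of the second 1405-fold, 1319-fold and 749-fold over the same libraries. The 5 liver-only members of most reads held 68.3% of the set's 3679 reads.

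Lung had the most members, most of them of low level. The 108 lung-only models had a median of 41 reads or 4.30 RPKM, with quartiles of 1.81 and 9.16 RPKM and a range of 0.215 to 230 RPKM. This median lay below that of the other models of 10 lung reads or more, which was 17.2 RPKM. Only 24 of the 108 reached 10 RPKM, whereas 15 of 20 liver-only, 15 of 31 kidney-only and 26 of 65 heart-only models did. Among the other models of 10 reads or more, 8851 of 13391 reached it in lung and 5429 of 10126 in liver. In kidney 8102 of 12270 did and in heart 6857 of 12664. The 5 members of most reads held 31.2% of the 10489 lung-only reads, against 60.6% to 68.3% in the other 3 sets. Since 5 models are a smaller part of 108 than of the other sets, these shares do not compare evenness.

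One lung-only model stood far above the rest by reads. evm.model.scaffold35517.7, of 786 bases, had 1599 reads in lung and 0 in heart, liver and kidney, and the next lung-only model by reads had 459. Its level of 230 RPKM in lung (219 to 241) was at least 847-fold above heart, 246-fold above liver and 330-fold above kidney. The second by RPKM, evm.model.scaffold48501.2, of 300 bases, had 332 reads in lung and 0 in the other 3 libraries. It reached 125 RPKM in lung (112 to 139), at least 176-fold above heart, 51.1-fold above liver and 68.6-fold above kidney. With median-ratio scaling the bound over liver was 22.7-fold for this model and 109-fold for the first. The third stood at 48.2 RPKM, so a gap separated these 2 models from the other 106.

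Kidney-only models lay between liver and lung in level. The 31 members ranged from 0.772 to 272 RPKM with a median of 9.15, against 17.7 RPKM for the other models of 10 kidney reads or more. The highest was evm.model.scaffold29831.54, of 411 bases, with 614 reads in kidney and 0 in heart, liver and lung. It stood at 272 RPKM in kidney (251 to 295), at least 525-fold above heart, 153-fold above liver and 330-fold above lung. The second, evm.model.scaffold7613.26, of 1087 bases, had 1000 reads in kidney, the most of this set, and 0 elsewhere. Its level was 168 RPKM in kidney (157 to 178), at least 854-fold above heart, 249-fold above liver and 538-fold above lung. With median-ratio scaling the bounds over liver were 74.0-fold for the first and 120.5-fold for the second. The 5 members of most reads held 60.6% of the 4503 kidney-only reads.

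**Figure D1:**
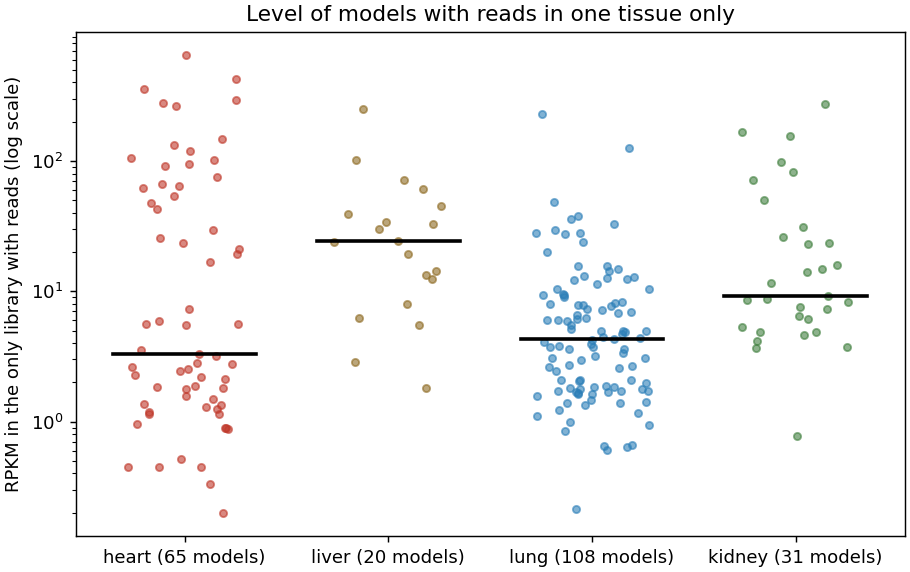
RPKM of each of the 224 models in the only library where it had reads (log scale), by tissue; points are models, spread sideways for legibility, and black lines are medians. Heart-only models split into many below 10 RPKM and 26 at or above it, while the liver-only median of 24.1 RPKM is the highest of the 4.

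The share of models seen in 1 tissue only fell from class to class of read count in lung and kidney only. In lung it was 3.85% of models with 10 to 19 reads (33 of 857), 1.55% at 20 to 49, 1.08% at 50 to 99, 0.412% at 100 to 999 and 0.0552% at 1000 or more (1 of 1811), each share lower than the one before. In heart the share was 2.82% at 10 to 19 reads (25 of 885) and 0.174% at 100 to 999 (12 of 6882). It was 0.634% at 1000 reads or more (13 of 2049). Since the rule rests on these counts, the shares describe the set and carry no test.

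In liver and kidney, models of few reads were seldom members. Kidney shares fell from class to class, as in lung, but from a lower start and with 95% intervals that overlapped. They were 0.552% at 10 to 19 reads (6 of 1086), 0.380% at 20 to 49 and 0.353% at 50 to 99. At 100 to 999 reads the kidney share was 0.156%, and at 1000 or more 0.103% (1 of 968). Liver shares were 0.137% at 10 to 19 reads (2 of 1456) and 0.291% at 100 to 999 (10 of 3433). None of the 455 liver models with 1000 reads or more was a member, which by the limit of 3 counts allows a share of up to 0.659%, with an exact 95% upper bound of 0.807%. A low count in liver is set against deeper libraries, whereas a low count in heart is set against shallower ones.

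**Figure D2:**
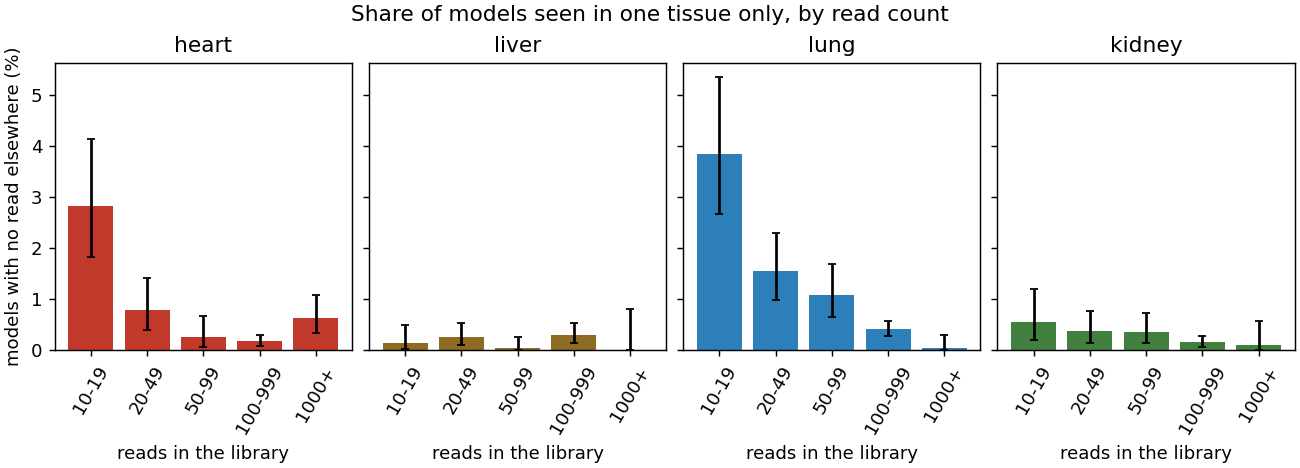
Percentage of models with no read in the other 3 libraries, by the number of reads in the named library; bars are shares of models and whiskers 95% exact binomial intervals, which cover counting error only. Lung shares (3.85% to 0.0552%) and kidney shares (0.552% to 0.103%) fall from class to class. Heart has 2.82% in the lowest class and 0.634% at 1000 reads or more.

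How much an absence says depends on the library that lacks the reads. At an equal RPKM, 10 reads in heart correspond to 2.91 reads in liver, 6.30 in lung and 3.90 in kidney, whereas 10 reads in liver correspond to 34.4 in heart, 21.6 in lung and 13.4 in kidney. A lung count of 10 reads corresponds to 15.9 heart, 4.62 liver and 6.20 kidney reads, and a kidney count of 10 reads to 25.6 heart, 7.46 liver and 16.1 lung reads. The liver library was therefore the weakest evidence of absence for each of the other tissues.

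Of the 224 members, 221 would have given 3 reads or more in each absent library at the same RPKM, and 153 would have given 10 or more. The 3 that fell short were heart-only models of 10 reads. For these a level in liver equal to that in heart would have given 2.91 reads, just under the limit of 3. A bound of at least 5-fold over each absent library was reached by 29 of 65 heart-only, 20 of 20 liver-only, 59 of 108 lung-only and 24 of 31 kidney-only models. A bound of at least 100-fold was reached by 22 members, 13 of heart, 6 of liver, 1 of lung and 2 of kidney. For the 92 members without the 5-fold bound, a difference of 5-fold could not be told from a smaller one in at least 1 absent library.

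Scaling by total reads bears on these limits. Median-ratio scaling used factors of 0.927 (heart), 0.614 (liver), 1.38 (lung) and 1.27 (kidney). With it, 45 of 65 heart-only and 87 of 108 lung-only models would have given 3 reads in each absent library, while the 20 liver-only and 31 kidney-only models all still would.

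**Figure D3:**
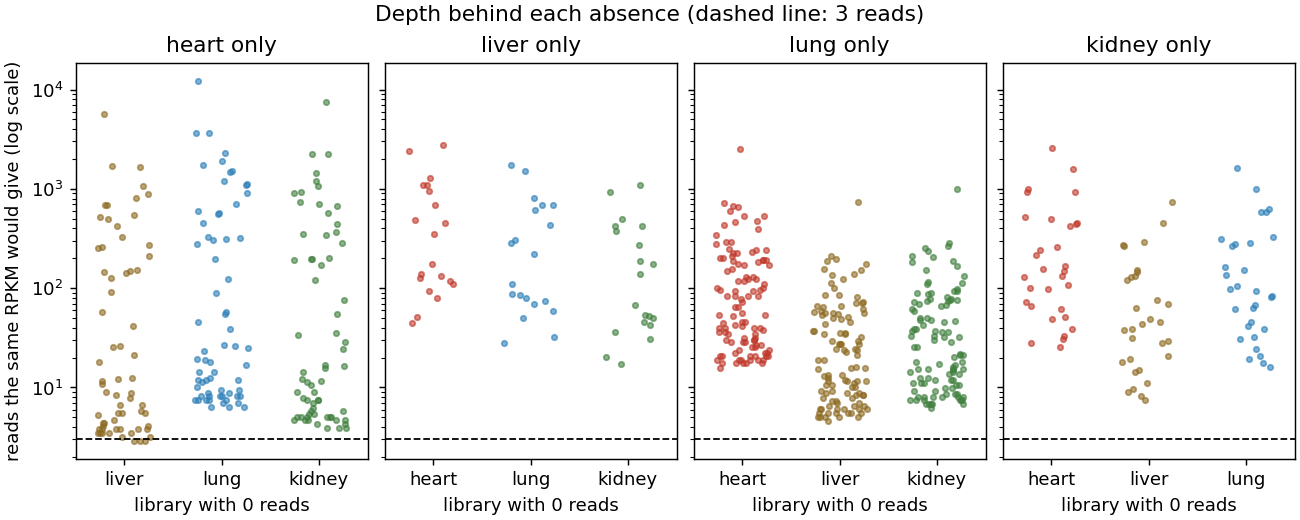
Reads that each member would have given in every library where it had 0, had its RPKM there been the same (log scale); each panel is a tissue, points are models and the dashed line marks 3 reads. Heart-only models reach down to 2.91 reads in liver, while liver-only models lie at 17.4 reads or more in every absent library.

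At the edge of the rule, levels on both sides overlapped in heart and lung and did not in kidney. The 5 heart-only models with 10 or 11 reads had 0.199 to 2.55 RPKM, and the 7 with 8 or 9 reads, just outside, had 0.240 to 1.93 RPKM. In lung the 6 just inside had 0.664 to 2.98 RPKM and the 16 just outside 0.294 to 3.99 RPKM. In kidney 2 models just inside had 4.90 and 6.08 RPKM, and 3 just outside had 1.04 to 3.31 RPKM. Liver had no member at 10 or 11 reads and 1 model just outside, at 3.92 RPKM.

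A single read elsewhere kept many models out. With 10 reads or more in a tissue and exactly 1 read in all other libraries together there were 81 lung, 36 heart, 30 kidney and 14 liver models. For the heart models that read lay in lung for 17, in kidney for 16 and in liver for 3. For the lung models it lay in heart for 36, in kidney for 26 and in liver for 19. Among these models was 1 with 24995 heart reads, more than any heart-only member had.

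Apart from the 3 scaffolds left out, the rule did not use position or the reads of neighbouring models. A neighbour is a listed model whose number on the same scaffold differs by 1, since the files give no coordinates. No read minimum was set for neighbours, so a neighbour with 1 read was also counted by its highest library. Neighbours of liver-only models were mostly highest in liver: 14 of 21 (66.7%) had their highest RPKM there, with 3 in kidney, 2 in heart and 2 in lung. Among neighbours of models that were highest in liver but also read elsewhere, 20.3% (285 of 1407) were highest in liver, and among neighbours of all other models with 10 liver reads or more, 7.84% were. The median level of these 21 neighbours was 18.3 RPKM in liver, against 1.35 in heart, 3.40 in lung and 7.02 in kidney.

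Neighbours of heart-only models showed the same direction. Of 75 neighbours, 33 (44.0%) were highest in heart and 25 in lung, against 27.0% highest in heart next to models that were highest in heart with reads elsewhere. Their median levels were 4.17 RPKM (heart), 0.178 (liver), 1.82 (lung) and 0.829 (kidney). In lung 82 of 129 neighbours (63.6%) were highest in lung, against 50.5% next to models highest in lung with reads elsewhere. In kidney the figures were 16 of 31 (51.6%) against 39.3%, with neighbour medians of 12.9 RPKM in kidney, 0.139 in heart, 0.665 in liver and 1.58 in lung. The share was above that of the comparison models by the most in liver.

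Counted per member, 12 of 16 liver-only models with a listed neighbour (75.0%, 95% interval 47.6 to 92.7) had at least 1 that was highest in liver, against 30.0% of models highest in liver with reads elsewhere (27.0 to 33.2). For heart-only models it was 28 of 48 (58.3%, 43.2 to 72.4) against 38.3% (36.3 to 40.3). For lung-only models it was 66 of 88 (75.0%, 64.6 to 83.6) against 65.1% (63.9 to 66.3), and for kidney-only models 14 of 24 (58.3%, 36.6 to 77.9) against 53.8% (52.3 to 55.4). The intervals of the 2 shares overlapped in lung and in kidney and did not in liver and heart. Under median-ratio scaling the shares were 75.0% (47.6 to 92.7) against 41.3% in liver and 62.5% (47.4 to 76.0) against 47.7% in heart. In lung the share was then 71.6% (61.0 to 80.7) against 55.0%, and in kidney 45.8% (25.6 to 67.2) against 42.6%. With this scaling the heart and kidney intervals held the comparison value, and the liver and lung intervals lay above it. With neighbours up to 2 numbers apart, the kidney share of 61.5% lay below the 68.1% of its comparison models. The intervals treat models as independent draws, which neighbours in 1 library are not, so they describe counting error only. The files do not say whether neighbouring models belong to 1 gene or to several.

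The named models give examples. The model numbered after evm.model.scaffold25393.14 had 5523 heart reads, 3 lung reads, 1 kidney read and 0 liver reads, or 992 RPKM in heart. The model numbered before it had 1.93 RPKM in heart against 8.62 in lung, so the heart pattern was seen on 1 side only. After evm.model.scaffold7613.26 came a model with 1303 reads in kidney, 1 in heart, 2 in liver and 0 in lung, which is 260 RPKM in kidney. The model after evm.model.scaffold20282.5 had 679 heart reads, 3 kidney reads, 2 lung reads and 0 liver reads. The model before it had 4.17 RPKM in heart and was highest in kidney, at 7.04, so there too the heart pattern was on 1 side. The 3 neighbours high in the same tissue had 3 to 5 reads in all other libraries together.

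The remaining neighbours of named models were highest in another tissue or had very few reads. The model before evm.model.scaffold35517.7 had 330 reads in lung, 211 in heart, 4 in liver and 287 in kidney, and its RPKM was highest in kidney at 17.4. The model after evm.model.scaffold29831.54 had 2.27 RPKM in kidney, against 15.5 in lung and 0.443 in heart, with 0 reads in liver. The model before evm.model.scaffold7613.26 had 0 reads in kidney, against 42 in lung, 1 in liver and 0 in heart, so its 2 neighbours differed. Next to evm.model.scaffold29874.32 was a model with 1 read in liver and none in the other libraries, and next to evm.model.scaffold48501.2 was a model with 3 reads in lung and none elsewhere. Both counts are too low to place. No listed neighbour stood beside evm.model.scaffold14490.1.

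**Figure D4:**
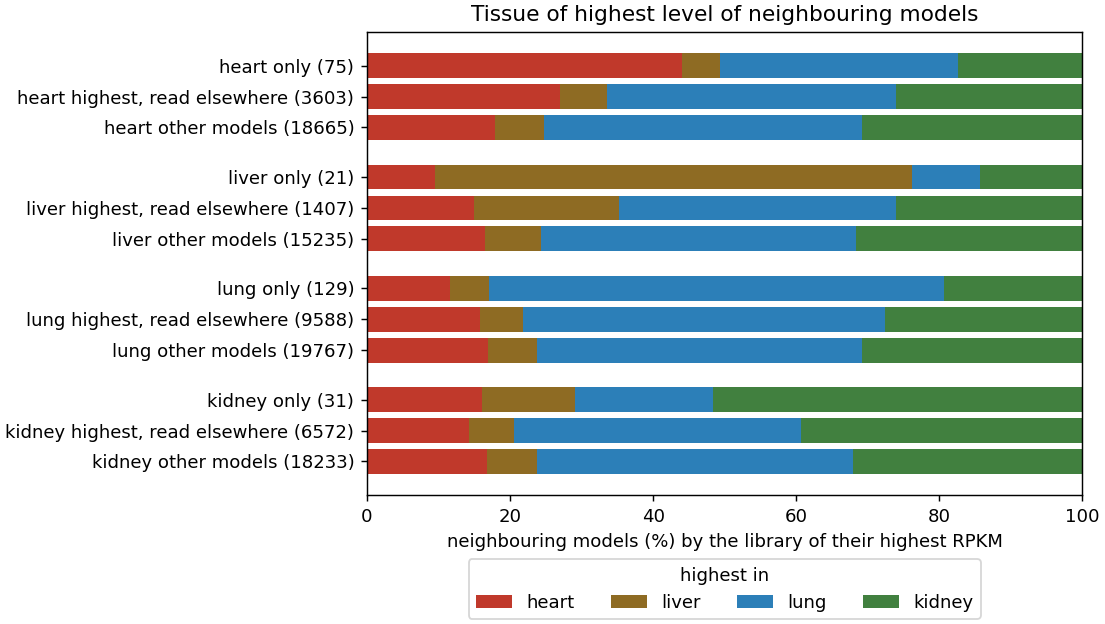
Share of neighbouring models by the library of their highest RPKM, for members (only), for models highest in the same tissue with reads elsewhere, and for all other models with 10 reads or more there; numbers of neighbours are in parentheses. The liver segment is 66.7% for liver-only models against 20.3% and 7.84%, and the heart segment 44.0% for heart-only models against 27.0% and 17.9%.

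The 224 members were spread over 204 scaffolds, of which 187 held 1 member, 14 held 2 and 3 held 3. Of the 17 scaffolds with several members, 8 held members of 1 tissue and 9 of different tissues. There were 2 pairs of members with consecutive numbers, and both pairs shared a tissue: a kidney pair at 13.9 and 23.1 RPKM and a lung pair at 14.3 and 6.55 RPKM. No run of 3 members with consecutive numbers was found. Whether 2 pairs are few for a set of this size was not tested. Counting neighbours of any read number, 14 of 88 lung-only models with a listed neighbour (15.9%) had 1 also listed in lung only. Among models highest in lung with reads elsewhere this was 4.79%. In heart it was 3 of 48 (6.25%) against 4.88%. In liver it was 1 of 16 (6.25%) against 2.76%, and in kidney 2 of 24 (8.33%) against 1.81%. The liver case was evm.model.scaffold29874.32, whose neighbour had 1 liver read. Each model of a consecutive pair counts, so the kidney pair made up both kidney cases and the lung pair was among the 14 in lung.

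Members more often had an unlisted model number beside them or no listed neighbour at all. For neighbouring numbers below the highest listed number of the scaffold, which exist if numbering is unbroken, the model was in none of the 4 tables for 23.9% of heart-only (22 of 92), 20.8% of liver-only (5 of 24), 22.9% of lung-only (35 of 153) and 26.3% of kidney-only positions (10 of 38), against 13.8% to 14.3% for the other models of 10 reads or more. The 95% intervals for heart (15.6 to 33.9) and lung (16.5 to 30.4) lay above those of the other models (13.8 to 14.8 in both), and those of liver and kidney did not. Next to models highest in heart with reads elsewhere the share was 16.2% (15.0 to 17.4), an interval that overlaps that of the heart-only models. Of all members 31 (13.8%) were the only listed model of their scaffold, against 7.80% of all 18367 models.

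Members were shorter than other models of the same library in all 4 tissues by their median. These medians were 840 bases for heart-only models against 1428 for other models of 10 reads or more, 1153.5 against 1464 in liver, 1207.5 against 1428 in lung and 822 against 1447.5 in kidney. Within classes of equal read count the gap did not hold throughout. Lung-only models were longer than the others in 3 of 5 classes, with medians of 1351.5 against 1050 bases at 20 to 49 reads, 1284 against 1122 at 50 to 99 and 1608 against 1512 at 100 to 999. Heart-only models were longer at 20 to 49 reads (1164 against 1105.5 bases), and so were the 2 liver-only models of 10 to 19 reads (1521 against 1252). Level and length are linked by the rule, since a longer model reaches 10 reads at a lower RPKM.

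Lengths of whole codons were less frequent among members, most clearly in kidney. A length that is a multiple of 3, as a complete coding sequence has, was found for 21 of 31 kidney-only models (67.7%, 95% interval 48.6 to 83.3), against 91.1% of the other models of 10 kidney reads or more. The shares were 86.2% against 90.8% in heart, 80.0% against 91.6% in liver and 88.9% against 91.0% in lung, where the members' intervals held the value of the other models. Of the 35 members with another length, 13 (37.1%) were the only listed model of their scaffold, whereas 18 of the 189 members with whole-codon lengths (9.52%) were. The part of incomplete models in these sets was not tested.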

How the data were processed

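RNA libraries of 4 pig tissues, 1 each, were analysed. Per the labels' protocols, Trizol was used to extract RNA and the Illumina TruSeq kit to make libraries. Per the submitters' processing notes TopHat, a spliced read aligner, was used. How reads were counted, how reads with several matches or strand were treated, and which genome build and annotation served is not given in the sources used here. Reads shared between near-identical models could therefore make or break an absence. Per the file headers, the authors deposited a whole-read count, an RPKM, a model length and a library total per model. Counts summed to the totals, and the deposited RPKM followed from count, length and total within a relative tolerance of 1e-09. No table lists 0 reads, so an unlisted model was taken as 0.

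The members and comparisons were chosen with earlier results of these data known. The named models were the 2 members of highest RPKM per tissue. The limit for 0 reads was 3 counts per library. Intervals are 95%, exact Poisson for counts and Clopper-Pearson for shares. Simulated counts with planted models served only to check that the rule was applied as written. They do not bear on whether an absence is real. Alternatives changed the read minimum, the reads allowed elsewhere, the limits on length and scaffold, the depth, the scaling and the reach of a neighbour. The software was Python 3.11.15 with numpy 2.4.6, pandas 2.3.3, matplotlib 3.10.9 and scipy 1.17.1.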

Additional observations from a re-analysis of the deposited data

How the results depend on the processing

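No paired analysis was possible because a single library stood for every tissue, and leaving out a library was not possible for the same reason. The number of members followed the read minimum. With no minimum there were 1496 (517 heart, 112 liver, 634 lung, 233 kidney). A minimum of 5 reads gave 346, with 105 in heart, 171 in lung and 47 in kidney. At 20 reads heart had 40, and with a minimum scaled to the library total it had 33. Allowing 1 read in each other library gave 450 (112 heart, 37 liver, 231 lung, 70 kidney). Thinning every library to the liver total gave 43 heart-only models, 33 of them members, and 53 kidney-only models, 29 of them members. Lung kept the most members and liver the fewest under all 8 alternatives to the rule. The share of lung-only models with a neighbour highest in lung was 84.2% when neighbours up to 2 numbers apart counted, against 80.6% of models highest in lung with reads elsewhere. Counting only neighbours of 10 reads or more, chosen after seeing the data, gave 59.5% (heart), 71.4% (liver), 74.6% (lung) and 65.0% (kidney). For models highest in the tissue with reads elsewhere, this setting gave 35.5% (heart), 27.9% (liver), 63.6% (lung) and 51.8% (kidney). Of 24 bounds on named models, 23 moved beyond counting error under median-ratio scaling, by factors of 0.444 to 2.25, and the lowest was then 22.7-fold.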
